A study of Mus musculus with 2 samples.

Results

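The MYC network is a family of basic helix-loop-helix leucine zipper transcription factors. Its members were taken by name: the MYC paralogs Myc, Mycn and Mycl, their partner Max, the repressors Mxd1, Mxi1, Mxd3, Mxd4 and Mnt, and Mlx, which makes 10 genes of the 21911 in the deposited table. All 10 names were found among the 21848 identifiers that GENCODE M21 pairs with a symbol. The mRNA came from 4T1, a mouse mammary carcinoma cell line, in 2 libraries. The PBS library was made from 5000000 cells given PBS for 48 h, and the oxalate library from as many cells given potassium oxalate for 48 h. The sample characteristics and the study's methods give the oxalate dose as 20 µM and the treatment protocol gives 20 mM, so the dose is uncertain. Polyadenylated RNA was sequenced, and each gene has 1 FPKM value (fragments divided by transcript length in kilobases and by the mapped fragments of the library in units of 1000000) in each library. There is 1 library per condition, so no difference between PBS and oxalate has a replicate check and none was tested.

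MYC proteins bind DNA as pairs with MAX, at the letters CACGTG and close variants of them that are called E-boxes, and recruit coactivators that raise the transcription of genes for growth, ribosome production and cell division. MXD proteins and MNT pair with the same MAX and bring SIN3 and histone deacetylases to E-boxes, so they act as counterweights to MYC. MLX is a second hub: it pairs with MondoA (encoded by Mlxip) and ChREBP (encoded by Mlxipl), which respond to sugar phosphates, and also with MXD1, MXD4 and MNT. Mammary carcinomas often depend on high MYC, and the MYC mRNA and protein are both short-lived.

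The members' own promoter windows are shown first, because network members can bind E-boxes and some members carry an E-box themselves. RefSeq windows on GRCm38.p6, from 250 bases before the start of transcription to 50 after it, were present for 9 of the 10 members (11 windows). The member without a window was Myc, so its promoter was not searched. The palindrome CACGTG was in the windows of 4 of these 9 genes, against 7.15% of all 32851 windows and 8.09% of all genes with a window. The matches are descriptions of letters and not evidence of binding. Each stretch below reads 5′ to 3′ on the strand of its gene, with the E-box in capitals.
Max: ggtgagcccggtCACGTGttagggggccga
Mlx: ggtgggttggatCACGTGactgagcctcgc
Mnt: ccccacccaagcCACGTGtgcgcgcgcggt
Mxd4: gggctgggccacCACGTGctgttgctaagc

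The stretch of Max lies at chr12:76962234-76962263 on the minus strand, and its E-box begins 3 bases before the RefSeq start, so that it spans the start itself. In GENCODE M21 the gene starts at 76962201 on that strand, so by that annotation the whole stretch lies before the start. That of Mlx lies at chr11:101087238-101087267 on the plus strand, and its E-box begins 40 bases before the start. That of Mnt lies at chr11:74830789-74830818 on the plus strand, and its E-box begins 123 bases before the start. That of Mxd4 lies at chr5:34187912-34187941 on the minus strand, and its E-box begins 219 bases before the start. The windows of Mycl, Mycn, Mxd1, Mxd3 and Mxi1 did not hold these letters. A variant E-box, CACGCG or its reverse complement CGCGTG, was found in 1 of the 11 windows, that of Mycl, against 9.27% of all windows.

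In both libraries Myc was the member with the highest mRNA level and Mycn was listed at 0. With oxalate, Max was 1.32-fold higher, and the other 8 expressed members differed by less than 1.2-fold. A mean of 1 FPKM or more across both libraries was reached by 9 of the 10 members, all but Mycn. The fold change used throughout is log2((oxalate + 1)/(PBS + 1)); the added 1 FPKM makes low genes look less changed than they are. On this scale 0 of the 9 members passed 1.5-fold, against 1.99% of the 10267 genes with a mean of 1 FPKM or more. At 1.2-fold, 1 of the 9 members was called, Max, against 9.95% of all genes in either direction. Of all genes, 4.75% were called higher and 5.2% lower at 1.2-fold. The members' share was therefore near that of all genes. The median log2 fold change of the 9 members was -0.015, with 4 higher and 5 lower, and that of all 10267 genes was 0.0031. With FPKM rescaled to TPM, Mlx turned from -0.015 to 0.0048, so that 5 members were higher and 4 lower.

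**Figure D1:**
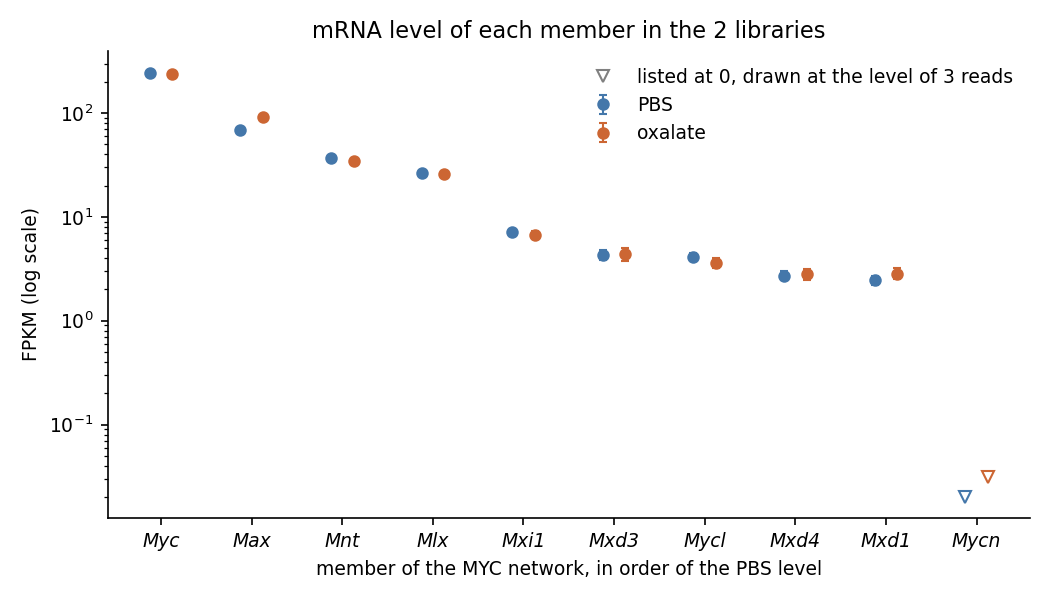
The level of each member is drawn as FPKM on a log axis, under PBS in blue and oxalate in orange, and bars give the exact 95% Poisson interval of the estimated reads, which covers counting error only. The order from Myc to Mxd1 spans about the same range in both libraries, and among the members above 0 the points of Max stand farthest apart. Mycn, listed at 0, is drawn at the level of 3 reads, 0.020 FPKM under PBS and 0.032 FPKM under oxalate. The gap between its points reflects the depth of the libraries only.

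Myc, the paralog that drives growth in many carcinomas, was at 245.46 FPKM under PBS and 236.82 FPKM under oxalate. This placed it above 97.0% of the genes with a mean of 1 FPKM or more in the PBS library and above 96.9% in the oxalate library. The log2 fold change was -0.051, and 68.1% of all genes tested lay at least as far from 0. Myc (ENSMUSG00000022346) lies on chromosome 15 at 61985391 to 61990374 (GRCm38, GENCODE M21) and has 8 coding transcripts.

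The level corresponds to an estimated 23726 reads under PBS and 14660 under oxalate. From these reads the 95% counting interval (exact, Clopper-Pearson) of the log2 FPKM ratio was -0.081 to -0.022. Such intervals hold no variation between cultures, so a span that leaves out 0 describes these libraries and not the conditions.

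Mycl, which encodes L-MYC, was at 4.1 FPKM under PBS and 3.59 FPKM under oxalate, a log2 fold change of -0.15. It was the lowest fold change among the members. The counting interval of its log2 ratio, -0.40 to 0.010, included 0 when reads were estimated from the mean length of its coding transcripts, and was -0.35 to -0.035 with the exon-union length, so whether it leaves out 0 depends on the length assumed. Mycn, which encodes N-MYC and is best known from neural tumors, was listed at 0 in both libraries. A count of 0 allows up to 3 reads, which are worth 0.020 FPKM in the PBS library and 0.032 FPKM in the oxalate library at the length of Mycn. Myc alone made up 98.4% of the summed FPKM of the MYC paralogs under PBS and 98.5% under oxalate, so that the paralog sum follows Myc. Mycl lies on chromosome 4 at 122995652 to 123002485 and Mycn on chromosome 12 at 12936093 to 12941914.

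Max, the obligate partner of MYC and a partner of the MXD and MNT repressors, was at 68.95 FPKM under PBS and 91.13 FPKM under oxalate. The oxalate library was the higher by 22.18 FPKM or 32.2%, a log2 fold change of 0.40. Of the 10267 genes tested, 227 (2.21%) had a fold change at least as high. From an estimated 6057 and 5127 reads, the counting interval of the log2 ratio was 0.35 to 0.46. Among the 3599 genes with a mean FPKM from 20 to 100, the central 90% of log2 fold changes ran from -0.22 to 0.19, and 2.42% were called higher at 1.2-fold. The value for Max lay above that central range.

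Max (ENSMUSG00000059436) lies on chromosome 12 at 76937269 to 76962201 on the minus strand. It has 3 coding transcripts among 7, with coding transcripts from 752 to 1942 bases long, and no exon of another annotated gene overlaps its exons. The number of coding transcripts moved with the share of all genes called: 1.91% of genes with 1 coding transcript were called higher at 1.2-fold, 4.12% with 2, 6.07% with 3 and 6.69% with 4 or more. Its part in the value of Max was not tested, since the table holds 1 value per gene and not per transcript.

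**Figure D2:**
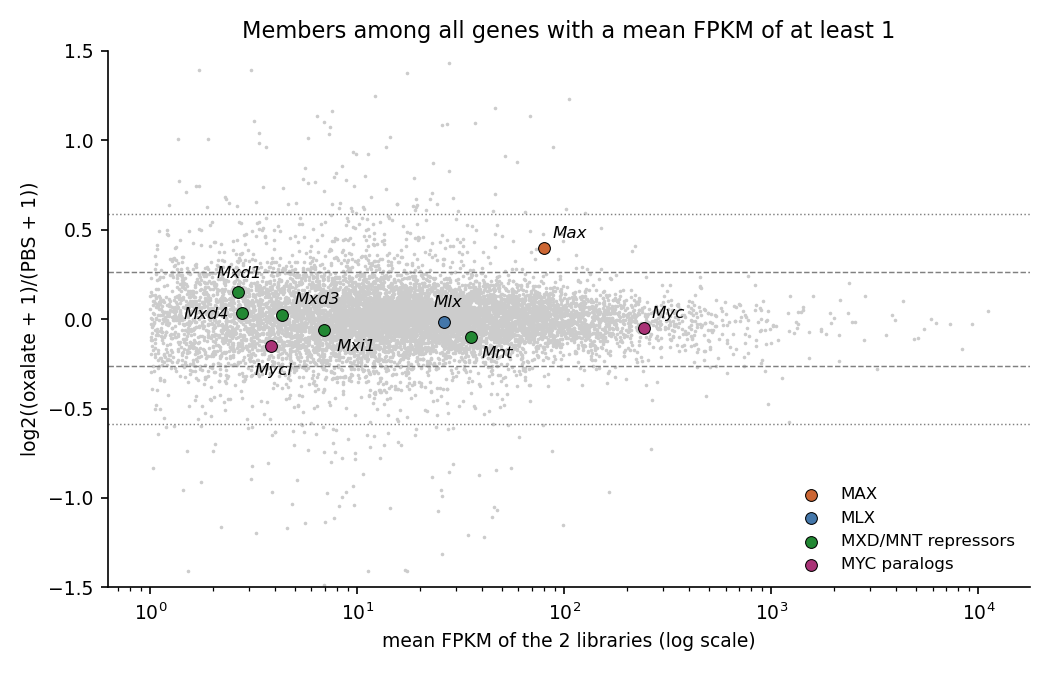
Each grey point is 1 of the 10267 genes with a mean of 1 FPKM or more, placed by its mean FPKM (log axis) and its log2((oxalate + 1)/(PBS + 1)), with dashed lines at 1.2-fold and dotted lines at 1.5-fold; 22 genes lie beyond the vertical axis. The members are colored by role, and Max alone lies past a dashed line.

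The repressors were led by Mnt, which is found in most cell types and pairs with MAX in growing as well as resting cells. Mnt was at 36.73 FPKM under PBS and 34.17 FPKM under oxalate, a log2 fold change of -0.10 with a counting interval of -0.17 to -0.041 for the log2 ratio. It held 69.0% of the summed FPKM of the repressors under PBS and 67.1% under oxalate. Mnt lay within the central 90% of log2 fold changes of its FPKM class, which is that of Max. Mnt (ENSMUSG00000000282) lies on chromosome 11 at 74830920 to 74845725 and has 2 coding transcripts.

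The MXD genes were far below Max and Mnt in level. Mxi1, also known as Mxd2, was at 7.08 FPKM under PBS and 6.74 FPKM under oxalate. Mxd3, which is known from dividing cells, was at 4.27 FPKM under PBS and 4.36 FPKM under oxalate. Mxd4, known from differentiating cells, was at 2.72 FPKM under PBS and 2.81 FPKM under oxalate.

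Mxd1, the founding repressor, which replaces MYC on MAX as cells differentiate, was at 2.45 FPKM under PBS and 2.83 FPKM under oxalate. Its log2 fold change of 0.15 was the highest among the repressors. From an estimated 355 and 263 reads, the counting interval of its log2 ratio was -0.025 to 0.44, which included 0. With the exon-union length it was 0.068 to 0.35, which did not. The intervals of Mxi1 (-0.23 to 0.096), Mxd3 (-0.23 to 0.28) and Mxd4 (-0.19 to 0.28) included 0 as well. Of the 5 repressors 3 were higher and 2 lower under oxalate. At 1.2-fold 0 were called, against 9.95% of all genes and 16.7% of those at 1 to 5 FPKM. With 5 genes this count says little. Among the 1983 genes with a mean FPKM from 1 to 5, where Mxd1, Mxd3, Mxd4 and Mycl lie, the central 90% of log2 fold changes ran from -0.32 to 0.32, and all 4 genes lay inside it. The MXD genes are spread over the genome: Mxd1 lies on chromosome 6 at 86647042 to 86669161, Mxi1 on chromosome 19 at 53310518 to 53375810, Mxd3 on chromosome 13 at 55325168 to 55329823 and Mxd4 on chromosome 5 at 34173883 to 34187720.

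Exon sequence is shared with a gene on the other strand in 3 repressor genes, and no source used here says that reads were counted by strand. Mxd3 shares 105 bases, 4.43% of its exon sequence, with Prelid1, which was at 224.91 FPKM under PBS and 230.62 FPKM under oxalate, so that the low value of Mxd3 is uncertain. Mxi1 shares 2.84% of its exon sequence with Gm10197, which was listed at 0 in both libraries. Mxd4 shares 6.06% with Gm42846, which has no value in the deposited table, so its level is not known here.

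Mlx, the hub of the sugar-responsive arm, was at 26.33 FPKM under PBS and 26.04 FPKM under oxalate, a log2 fold change of -0.015 with a counting interval of -0.11 to 0.080 for the log2 ratio. Mlx lies on chromosome 11 at 101087277 to 101092207, and the coordinates of all members are those of GENCODE M21 on GRCm38. It overlaps Psmc3ip on the other strand over 19.3% of its exon sequence. Psmc3ip, which encodes a recombination cofactor, was at 15.13 and 15.67 FPKM, so reads from the overlap cannot be told apart. Among genes outside the 10 members that complete the network, Mlxip, which encodes MondoA, was at 17.96 FPKM under PBS and 18.01 FPKM under oxalate. Mlxipl, which encodes ChREBP, was listed at 0 in both libraries. Mga, a large MAX partner of a repressive Polycomb complex, was at 2.7 FPKM under PBS and 2.97 FPKM under oxalate, a log2 fold change of 0.10. The mRNA of the MLX arm was thus that of Mlx and Mlxip, at a ratio of Mlxip to Mlx of 0.682 under PBS and 0.692 under oxalate.

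The order of the members by FPKM, a level per length, was the same in both libraries down to Mycl: Myc, Max, Mnt, Mlx, Mxi1, Mxd3, Mycl. Below them Mxd4 and Mxd1 changed places. In neither library did the Poisson intervals of Mxd3 and Mycl separate, and the same held for Mxd4 and Mxd1. With PBS the interval was 3.81 to 4.76 FPKM for Mxd3 and 3.77 to 4.46 FPKM for Mycl. All other neighbors in the order had intervals apart from each other in both libraries, by counting error alone.

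Set side by side by role, the MYC paralogs summed to 249.56 FPKM under PBS and 240.41 FPKM under oxalate. The 5 repressors summed to 53.25 FPKM under PBS and 50.91 FPKM under oxalate. The ratio of MYC paralogs to repressors was 4.69 (95% counting interval 4.56 to 4.81) under PBS and 4.72 (4.56 to 4.89) under oxalate, a log2 change of 0.011 with an interval of -0.051 to 0.073. The balance of activating and repressing partners at the mRNA level thus differed by less than the counting error.

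Against Max, both groups of partners were lower in the oxalate library. The ratio of MYC paralogs to Max was 3.62 (3.52 to 3.72) under PBS and 2.64 (2.56 to 2.72) under oxalate. The ratio of repressors to Max was 0.772 (0.746 to 0.799) under PBS and 0.559 (0.536 to 0.582) under oxalate. Summed over all its partners among the members, there were 4.39 FPKM of partner mRNA per FPKM of Max under PBS and 3.20 under oxalate, a log2 change of -0.46 (-0.52 to -0.40). Both ratios share the denominator Max, so they restate its higher value and are not separate findings. Max made up 17.3% of the summed FPKM of the members under PBS and 22.3% under oxalate. MXD1, MXD4 and MNT also pair with MLX, so the repressor and partner sums are not of partners of MAX alone. These are mRNA levels, and protein levels were not measured in these libraries.

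**Figure D3:**
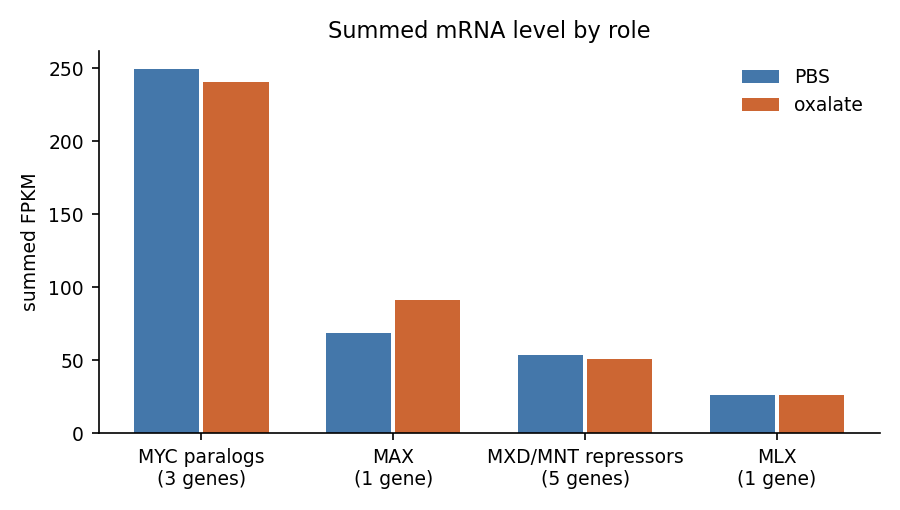
Bars give the summed FPKM of each role in the PBS (blue) and oxalate (orange) library, 1 library each, with the vertical axis starting at 0. The bars of the MYC paralogs (249.56 and 240.41), the repressors (53.25 and 50.91) and Mlx (26.33 and 26.04) are nearly level between libraries, and that of Max goes from 68.95 to 91.13.

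Genes around the network were read from lists written from general knowledge. The shares to set beside their counts are the 9.95% of all genes called at 1.2-fold in either direction and the 50.6% that were higher under oxalate (57.3% with FPKM rescaled to TPM). The share called at 1.2-fold fell with level, from 16.7% of genes at 1 to 5 FPKM and 11.9% at 5 to 20 FPKM. It was 5.78% at 20 to 100 FPKM and 4.34% at 100 FPKM and over. Most genes of the MYC-activated, coactivator, corepressor and MYC protein stability lists had a mean of 20 FPKM or more. For these lists the lower shares are the closer background. How reads that match several genes were counted is not given in the sources used here, so the level of any gene with near-identical copies is uncertain. Known MYC-activated genes of ribosome production numbered 36, and none of them was below the filter. In this list 13 genes were higher under oxalate and 23 lower, with a median log2 fold change of -0.022. At 1.2-fold 1 gene was called (2.78%, against 9.95% of all genes and 5.78% of those at 20 to 100 FPKM). Rescaled to TPM, the list split into 18 higher and 18 lower and its median became -0.0014, so the direction of the split depends on the scaling. The called gene was Grwd1, which encodes a ribosome assembly factor, at 71.44 FPKM under PBS and 58.26 FPKM under oxalate (-0.29 on the log2 scale). The highest fold change was that of the processing factor Rrp12, from 42.78 to 46.81 FPKM. The most abundant were the nucleolar proteins Npm1 (2186.6 and 2053.85 FPKM) and Ncl (905.77 and 868.46 FPKM).

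Of 36 MYC-activated genes of metabolism and growth, 18 were higher and 18 lower, and the median log2 fold change was -0.0035. At 1.2-fold 1 was called higher and 2 lower, 8.33% of the list, against 9.95% of all genes. Most of the list had a mean of 20 FPKM or more. The share was above the 5.78% of genes at 20 to 100 FPKM and the 4.34% at 100 FPKM and over. Shmt2, the mitochondrial enzyme that makes glycine and one-carbon units from serine, was at 184.22 FPKM under PBS and 240.23 FPKM under oxalate, a log2 fold change of 0.38. Eif5a, a translation factor modified with the polyamine spermidine, was at 1025.79 and 838.3 FPKM, a log2 fold change of -0.29. The other was Hspe1, a mitochondrial chaperone, at 263.89 and 215.54 FPKM, named after its values were seen. Pkm, which encodes pyruvate kinase, was the most abundant gene of the list, at 4148.66 and 4450.62 FPKM.

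Of 22 MYC-activated cell cycle genes 16 were higher and 6 lower, the median was 0.015, and 2 were called lower at 1.2-fold. These were 9.09% of the list, against 9.95% of all genes. The share was above the 5.78% of genes at 20 to 100 FPKM and the 4.34% at 100 FPKM and over, where most of the list lies. Of the list 72.7% was higher, against 50.6% of all genes. E2f3, an activator of S-phase genes, was at 9.15 FPKM under PBS and 6.47 FPKM under oxalate, a log2 fold change of -0.44. Cks2, a small subunit of cyclin-dependent kinases, was at 42.21 and 34.07 FPKM and was named after its values were seen. Cdca7, a MYC target with the highest fold change of the list, was at 35.01 and 38.35 FPKM. Cdk4 (333.3 and 341.03 FPKM) and cyclin D1, encoded by Ccnd1 (298.86 and 301.26 FPKM), were the most abundant and differed little.

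Of 18 genes known to be repressed by MYC, 11 had a mean of 1 FPKM or more, with 6 higher, 5 lower and a median of 0.035. At 1.2-fold 1 was called higher and 2 lower. Cdkn1b, which encodes the kinase inhibitor p27, was at 14.7 FPKM under PBS and 10.92 FPKM under oxalate, a log2 fold change of -0.40. Cdkn1a, which encodes p21 and was named after its values were seen, was at 13.26 and 10.67 FPKM. Hbp1, an HMG-box repressor of cell cycle genes, was at 9.42 and 12.6 FPKM, a log2 fold change of 0.38. The most abundant were Thbs1, an inhibitor of angiogenesis (303.75 and 346.29 FPKM), and the stress-responsive Ndrg1 (296.74 and 331.45 FPKM). The 3 called genes were 27.3% of the 11, in both directions, against 9.95% of all genes, and with 11 genes each call adds much to this share.

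Among partners of the network proteins, 15 of 20 MYC coactivators and cofactors were higher under oxalate and 5 lower, with a median of 0.087. At 1.2-fold 1 was called (5%, against 9.95% of all genes and 5.78% of those at 20 to 100 FPKM). This was Ep400, the ATPase of the TIP60 complex, at 26.83 FPKM under PBS and 35.13 FPKM under oxalate, a log2 fold change of 0.38. Actl6a, an actin-like subunit of chromatin remodelers, had the lowest value, at 68.45 and 64.17 FPKM. The helicase gene Ruvbl2 (141.42 and 155.53 FPKM) and Smarca4, which encodes the remodeler BRG1 (117.81 and 123.91 FPKM), were the most abundant.

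The 14 SIN3-HDAC and NCOR corepressor genes, which MXD and MNT recruit, had 6 higher, 8 lower and a median of -0.027. At 1.2-fold 0 of the 14 genes were called, against 9.95% of all genes and 5.78% of those at 20 to 100 FPKM. They ran from Sap18, a SIN3-associated protein gene (59.28 and 52.08 FPKM), to Suds3, a SIN3 subunit (38.17 and 41.24 FPKM). Rbbp7, a histone chaperone (140.26 and 136.49 FPKM), and Ncor1 (90.33 and 95.46 FPKM) were the most abundant.

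Genes that control the stability of the MYC protein numbered 24, with 17 higher (70.8%, against 50.6% of all genes), 7 lower and a median of 0.048. At 1.2-fold 1 was called (4.17%, against 9.95% of all genes and 5.78% of those at 20 to 100 FPKM). This was Set, which encodes an inhibitor of the phosphatase PP2A, at 591.87 FPKM under PBS and 492.64 FPKM under oxalate, a log2 fold change of -0.26, and with TPM it did not pass. Trpc4ap, the adaptor of a ubiquitin ligase for MYC, had the highest value, at 64.65 and 76.22 FPKM. Ppp2r1a, the scaffold of PP2A, was at 273.78 and 283.44 FPKM. In none of these lists did a gene pass 1.5-fold, against 1.99% of all genes. At that share, lists of this size would hold few such genes or none.

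**Figure D4:**
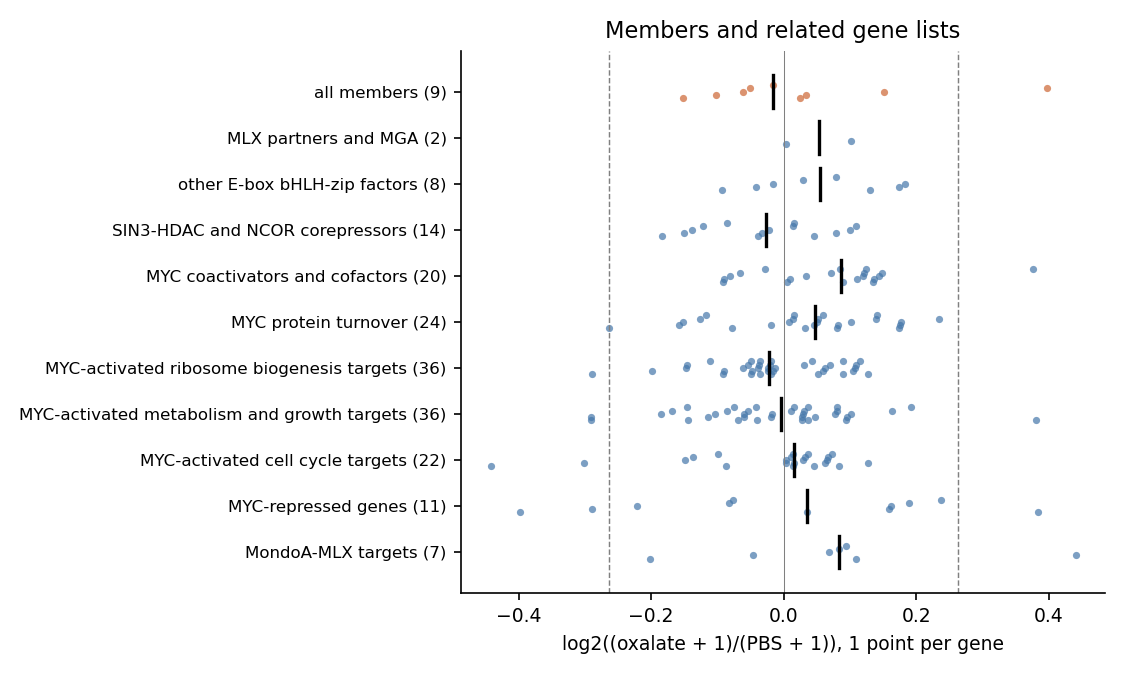
Each point is the log2((oxalate + 1)/(PBS + 1)) of 1 gene with a mean of 1 FPKM or more, in the members (orange) and in related lists (blue), with the number of genes in brackets, a black bar at each median and dashed lines at 1.2-fold. The medians run from -0.027 to 0.087, and Max is the rightmost of the members at 0.40.

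The cell label was checked against markers. Of 10 epithelial markers 9 had a mean of 1 FPKM or more, led by the keratins Krt7 (703.31 and 699.04 FPKM) and Krt8 (401.94 and 429.31 FPKM), and the 10 summed to 2403.75 FPKM under PBS and 2461.13 under oxalate. The claudins Cldn4 (175.78 and 189.74 FPKM) and Cldn7 (96.81 and 82.71 FPKM) had the highest and lowest fold change. Of 12 leukocyte markers 9 were listed at 0 in both libraries, Ptprc among them, and the list summed to 12.78 and 12.35 FPKM, nearly all from Cd68 (7.79 and 7.11) and Csf1r (4.93 and 5.18). Of 12 endothelial and fibroblast markers 8 had a mean under 0.1 FPKM, and the sums of 146.65 and 147.31 FPKM came almost wholly from Col1a1 (143.48 and 144.61), with Pdgfra at 1.88 and 1.93. The steps in which low FPKM values move put the depth of the PBS library near 57000000 reads and that of the oxalate library near 36500000, so values of the oxalate library carry the larger counting error.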

How the data were processed

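Total RNA of 4T1 cells was selected for polyadenylated RNA and reverse transcribed from random primers before Illumina sequencing. The authors deposited 1 table of FPKM values, rounded to 2 decimals, with 1 library per condition. Submitters' processing notes name Bowtie2 2.2.8 and TopHat2 2.1.1. The quantification tool, genome build and annotation are not given in the sources used here. FPKM values are not counts, so no count test was run.

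Identifiers were paired with symbols, lengths and coordinates of GENCODE M21 (GRCm38), and 63 of 21911 were not found. A pseudocount of 1 FPKM and a mean of 1 FPKM or more were used, and called means past 1.2-fold or 1.5-fold.

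Depth was estimated from genes with 1 annotated transcript, whose FPKM times length in kb moved in steps of 0.0175 (PBS, 37 values) and 0.0274 (oxalate, 75 values). In each library 100% of these values lay within 0.2 of a whole read. The steps were chosen to fit the same values, so this share is a measure of fit and not a separate check. Reads of other genes were estimated with the mean length of their coding transcripts. This length was checked on genes with more than 1 coding transcript, a mean length under 0.7 kb and up to 10 reads. Of these, 97.6% of 42 values under PBS and 94.3% of 35 under oxalate lay within 0.2 of a whole read. Intervals (95%) and floors (3 reads) cover counting error only. Intervals of ratios of sums use a normal approximation.

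Members and lists were chosen with earlier results of these data known. Named genes were the members, Mlxip, Mlxipl and Mga, and from each list genes past 1.5-fold, the highest and lowest fold change and the 2 most abundant. Alternatives were other pseudocounts (0.1 and 0.001), filters, thresholds, scalings, lengths and ratio definitions. Scripts were tested on simulated data. The software was Python 3.11.15 with scipy 1.17.1, pandas 2.3.3, matplotlib 3.10.9 and numpy 2.4.6.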

Additional observations from a re-analysis of the deposited data

How the results depend on the processing

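No paired analysis was possible because PBS and oxalate have 1 library each, so that none could be left out either. The count of members called stayed at 0 (1.5-fold) and 1 (1.2-fold, Max) under every pseudocount and scaling run. The filters and the 2-fold threshold could not have changed these counts. Max had a mean of 80.04 FPKM, Mycn was listed at 0, and no member passed 1.5-fold. The 204 genes called at 1.5-fold among all genes became 309 with a pseudocount of 0.001 and 67 with a 2-fold threshold. The log2 fold changes of the 9 members shifted by less than the half-width of their counting interval in 36 of 36 alternatives. Centering on the median of all genes shifted each value by 0.0031 only, so it could not have passed these limits. The filters could not move the median of a list whose genes all passed them. Of 78 list medians 76 moved by less than 0.05. The exceptions were both of the MYC-repressed genes, whose median of 0.035 became -0.050 with no filter and 0.097 at a mean of 5 FPKM or more; these settings change which genes enter. The 5 alternative ratios stayed within the counting interval of the main ones. As Myc made up 98.4% of the paralog sum under PBS and 98.5% under oxalate, ratios with Myc alone could hardly have differed. With reads estimated from exon-union lengths instead, which gives more reads per gene, the intervals of Mycl (-0.35 to -0.035) and Mxd1 (0.068 to 0.35) no longer included 0. Rescaled to TPM, the ribosome production genes went from 13 higher and 23 lower to 18 and 18, while 57.3% of all genes were higher. Depth limits the low members: at the length of Mxd1, 1 read was worth 0.0069 FPKM under PBS and 0.011 FPKM under oxalate.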

Other observations

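Other factors that bind E-boxes through the same kind of domain had 8 of 9 genes with a mean of 1 FPKM or more, with 5 higher, 3 lower and a median log2 fold change of 0.055 under oxalate, and 0 past 1.2-fold, against 9.95% of all genes. Tfeb, a regulator of lysosomal genes, had the highest fold change, at 7.14 FPKM under PBS and 8.24 FPKM under oxalate. Tfap4, a MYC target that represses Cdkn1a in other settings, had the lowest, at 33.51 and 31.35 FPKM. Usf2 (70.05 and 69.28 FPKM) and Srebf2, the regulator of cholesterol synthesis (65.66 and 69.44 FPKM), were the most abundant, at levels near that of Max under PBS.

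Of 9 genes known to follow MondoA, ChREBP and MLX, 7 had a mean of 1 FPKM or more, with 5 higher, 2 lower and a median of 0.083. Arrdc2, an arrestin family gene, was the 1 gene past 1.2-fold (14.3% of the 7, against 9.95% of all genes), at 2.08 FPKM under PBS and 3.18 FPKM under oxalate. Arrdc4, which MondoA is known to activate, was at 1.6 and 1.26 FPKM. The lipid synthesis genes Fasn (220.09 and 233.24 FPKM) and Acly (137.1 and 143.76 FPKM) were the most abundant of the list.

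In the RefSeq promoter windows, CACGTG was found for 10 of the 31 MYC-activated metabolism and growth genes with a window (32.3%), for 8 of 30 ribosome production genes (26.7%) and for 3 of 18 cell cycle genes (16.7%), against 8.09% of all genes with a window. For genes known to be repressed by MYC it was found for 4 of 14 (28.6%). It was also found for 2 of 18 MYC coactivators and cofactors (11.1%) and 2 of 19 MYC protein stability genes (10.5%). Shares were 9.09% for corepressors, 14.3% for MondoA and MLX targets and 0 for other E-box factors. It was found for 1 of 3 among Mlxip, Mlxipl and Mga. The MYC target lists were chosen as known targets, and the 8.09% has no filter on level. Whether these shares exceed those of unselected expressed genes was not tested.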
